A study of Mus musculus with 6 samples.

Results

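The trypsin-like genes of mouse chromosome 6 are described here as 10 genes: Prss58, 1700074P13Rik, Gm4744, 1810009J06Rik, Gm2663, 2210010C04Rik, Try4, Try5, Try10 and Prss2. They were found on the array by the symbols of the platform annotation, old or current, which gave 10 rows of 65770, 1 row per gene. The row of Try10 also names Gm5409, a trypsin-like pseudogene, so it cannot be read as Try10 alone. The cluster had been chosen by the differences between ionomycin and naive arrays seen on these same 6 arrays. Those differences are therefore given as a description of the 10 rows. No p-value is given for them, and where the text says how many of the 10 rows a fit over the whole table called, that count is no evidence about the cluster.

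The cells were primary mast cells grown out of femoral marrow of C57BL/6J mice (bone marrow-derived mast cells) with interleukin 3 and a supernatant containing stem cell factor, and matured for 6 weeks. The labels name no genetic change in either group. Both groups spent 1 h in Tyrode's buffer, were washed, and were kept in culture medium for 3 h. The ionomycin group, 3 arrays, received 1 µg/mL of the calcium ionophore ionomycin during the hour in buffer, so its RNA dates from 4 h after activation began. The naive group, 3 arrays, received buffer alone. The labels do not say whether the 3 replicates of a group came from separate mice or cultures, so errors and p-values reflect only how these samples vary, perhaps for technical reasons. The labels name no sort, and in bulk RNA more transcript per cell and more cells of a type cannot be told apart.

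Values are log2 signals from whole-transcript arrays. The mast cell label was met by the level of the markers. The 14 measured mast cell markers of 15 averaged 12.27 to 12.30 on naive and 12.23 to 12.30 on ionomycin arrays. No other cell type list averaged above 8.72 on any array. All 14 were above background, but so were 8 of 8 macrophage and 13 of 16 T cell markers, so that alone does not separate cell types. Cpa3 (mast cell carboxypeptidase) had a mean of 14.25 ± 0.08 on the naive and 14.22 ± 0.05 on the ionomycin side (SD, n = 3, limma adjusted p = 0.843). Background was taken as the 95th percentile of 1771 chemosensory receptor genes, a log2 level of 6.05. Naive array 1 and ionomycin array 1 lay away from the rest. On the first principal component (48.6% of variance) they scored -62.9 and -25.6, against 15.1 to 28.4 for the other 4 arrays. Differences of Gm2663 and 1810009J06Rik, and calls of listed genes that changed, are given with and without these arrays. The median difference of all rows was 0.05 as deposited and -0.02 after each array was centred on its median.

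Trypsins are serine proteases that cut after lysine and arginine. They are made as inactive trypsinogens, chiefly by acinar cells of the pancreas, and enteropeptidase in the gut removes a short propeptide to activate them. In the mouse the trypsinogen genes lie inside the T cell receptor beta locus, some before the main run of variable segments and some between those segments and the diversity, joining and constant segments. Mast cells are known for other trypsin-like enzymes, the tryptases, whose genes lie elsewhere.

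In chromosomal order (RefSeq, assembly GRCm38.p6) the first 6 genes, from Prss58 to 2210010C04Rik, lie together, with 1810009J06Rik and Gm2663 side by side in their middle. The main run of T cell receptor variable segments follows, and then Try4, Try5, Try10 and, last, Prss2. RefSeq gives the older names Tryx3, Tryx5 and Tryx4 for Prss58, 1700074P13Rik and Gm4744, and lists Gm4744 as a pseudogene. The RefSeq promoter table held 6 of the 10 genes: Prss58, 1700074P13Rik, Gm2663, 2210010C04Rik, Try4 and Prss2. The 250 bases before the start are printed for 3 of them, because they set the gene with the largest difference beside its next neighbour and beside a trypsinogen of the far group, neither of which differed by much. They lie on the minus strand at chr6:40999480-40999729 (Gm2663) and chr6:41035510-41035759 (2210010C04Rik), and on the plus strand at chr6:41302022-41302271 (Try4). Capitals mark matches on either strand to 3 motifs. The first is the TATA box, searched as TATAAA. The second is the E-box bound by PTF1, a factor of acinar cells, searched as CAGGTG. The third is the core of the sites of NFAT, a factor activated by calcium signals, searched as GGAAA.
Gm2663: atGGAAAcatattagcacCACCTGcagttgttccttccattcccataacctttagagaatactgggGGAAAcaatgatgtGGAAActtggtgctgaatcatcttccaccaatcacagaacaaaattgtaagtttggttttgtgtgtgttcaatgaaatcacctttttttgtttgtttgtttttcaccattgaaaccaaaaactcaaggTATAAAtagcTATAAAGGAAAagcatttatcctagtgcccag
2210010C04Rik: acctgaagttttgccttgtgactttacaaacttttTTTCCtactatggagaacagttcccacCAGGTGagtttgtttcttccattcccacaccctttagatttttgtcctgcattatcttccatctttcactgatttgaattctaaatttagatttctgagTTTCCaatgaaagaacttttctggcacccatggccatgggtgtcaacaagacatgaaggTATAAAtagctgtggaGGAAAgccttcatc
Try4: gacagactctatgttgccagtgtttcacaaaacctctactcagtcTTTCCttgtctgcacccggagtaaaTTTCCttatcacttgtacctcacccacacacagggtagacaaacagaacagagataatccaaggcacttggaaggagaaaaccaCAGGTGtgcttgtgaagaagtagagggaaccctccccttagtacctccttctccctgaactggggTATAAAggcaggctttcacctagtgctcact

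The search covered 250 bases before to 50 bases after the start, on both strands, and counted no overlap between matches of different motifs in these genes. A TATA box and a PTF1 E-box were found in 4 of the 6 promoters, those of Gm2663, 2210010C04Rik, Try4 and Prss2, and neither was found in those of Prss58 and 1700074P13Rik. Over all 32851 promoter windows of this length, 13.6% held TATAAA and 20.2% held CAGGTG. Gm2663 had 2 TATA matches, starting at -42 and -32, where 2210010C04Rik had 1 at -30 and Try4 1 at -31. The NFAT core, a motif so short that 61.3% of all windows hold it, occurred 4 times in Gm2663, 3 times in 2210010C04Rik and Prss2, and 2 times in Try4 and 1700074P13Rik. Prss58 had no match to it. The count of 4 was not particular to Gm2663. Other trypsin-like genes of the locus were searched too, and Gm5771 and Prss1 also held 4 matches each, Prss3 and Gm10334 1 each. No match was found in the 6 windows to TGAGTCA (AP-1, in 5.2% of all windows), TGACGTCA (CRE, 1.79%), GAANNTTC (7.86%) or TTCNNGAA (8.52%), the last 2 being forms of the heat shock element. Outside the 6, TTCNNGAA had 1 match each in Prss3, Gm5771, Gm10334 and Prss1. The longest run of letters that Gm2663 shared with 2210010C04Rik was AAGGTATAAATAGCT, 15 bases around the TATA box, from -46 to -32 in Gm2663 and from -34 to -20 in 2210010C04Rik. With each of the other 4 windows among the 6, Gm2663 shared runs of 7 or 8 bases. These matches describe letters only.

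Gm2663 and 1810009J06Rik stood far above their naive levels at 4 h after ionomycin, and the other 8 rows of the cluster stayed near theirs. Gm2663, annotated as a protein-coding trypsin-like gene, read 5.43, 6.23 and 6.04 (log2 signal) on naive arrays 1, 2 and 3 and 11.19, 10.32 and 10.04 on ionomycin arrays 1, 2 and 3. Every ionomycin array was thus far above every naive array, and the gap between the lowest of the former and the highest of the latter was 3.81 on the log2 scale. The means were 5.90 ± 0.42 and 10.51 ± 0.60 (SD, n = 3 per group), a log2 difference of 4.61 ± 0.33 (moderated SE), or 24.5-fold. The naive mean lay below background. Set against background on each naive array that read lower, the ionomycin mean was at least 21.2-fold higher.

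For 1810009J06Rik, the protein-coding gene next to Gm2663, the naive arrays read 5.26, 6.03 and 6.09 and the ionomycin arrays 10.99, 10.17 and 9.72. The groups did not overlap here either, with a gap of 3.63. Its means were 5.79 ± 0.46 and 10.29 ± 0.64 (SD, n = 3), a log2 difference of 4.50 ± 0.36 (moderated SE) or 22.6-fold, and at least 18.8-fold against background. The differences of both genes lay within 1 SE of each other. The probe sequences were not used here, so how far either row also measures transcripts of the other gene was not tested.

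**Figure D1:**
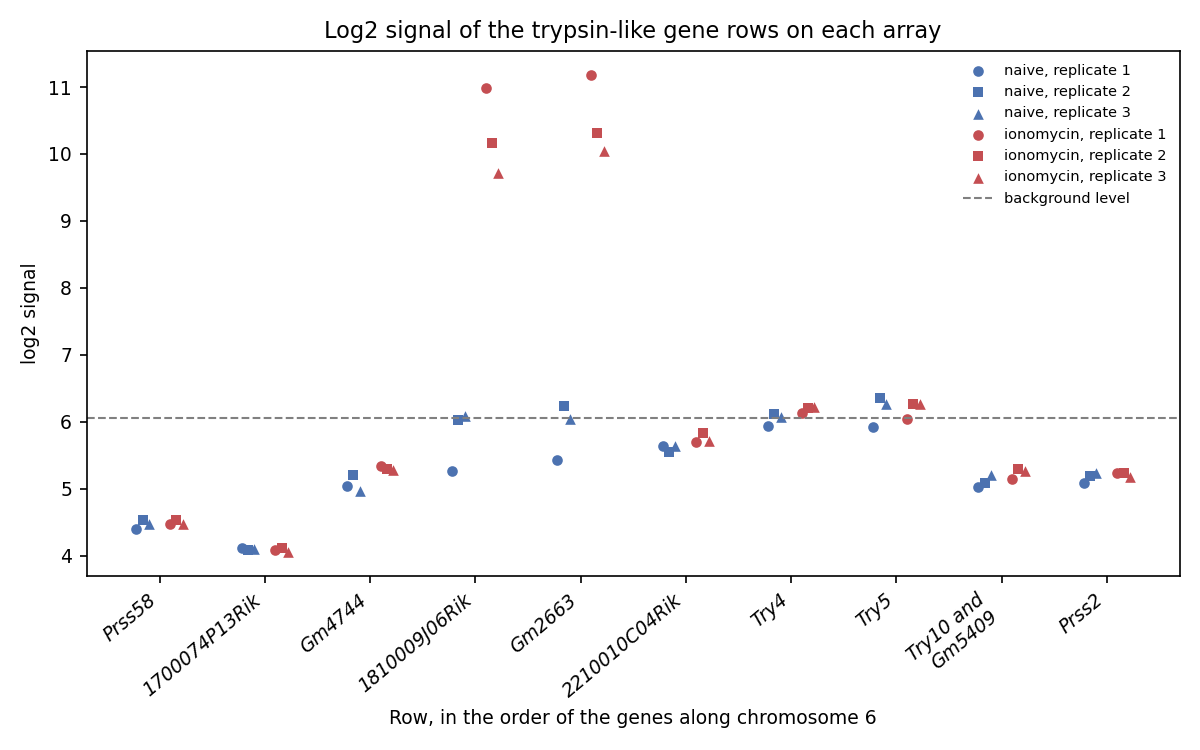
Log2 signal (vertical axis) of the 10 rows on each of the 6 arrays, in chromosomal order; colour gives the group, the marker shape the replicate number, and the dashed line the background level of 6.05. The ionomycin arrays lie between 9.72 and 11.19 for 1810009J06Rik and Gm2663, and the highest of all other points is 6.35.

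Both genes ordered the arrays alike within the ionomycin group. Replicate 1 had the lowest naive and the highest ionomycin value in each of them, so the difference at replicate 1 exceeded those at replicates 2 and 3. For Gm2663 the differences at the 3 replicate numbers were 5.75, 4.08 and 4.00. For 1810009J06Rik they were 5.72, 4.14 and 3.63. Without both replicate 1 arrays the log2 differences were 4.04 (16.5-fold) for Gm2663 and 3.89 (14.8-fold) for 1810009J06Rik, so both stayed large among the arrays that resembled each other.

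Across the whole table, 2 of the 10 rows were called higher and 0 lower by limma at an adjusted p under 0.05, where 0.161% of the 65770 rows were called higher and 0.184% in either direction. Since the cluster was chosen by this contrast, nothing is read from that count. As measured, the differences of Gm2663 and 1810009J06Rik were among the 3 largest of all rows, with that of Rln3, a relaxin family gene named after its value was seen, at 4.60. The order among the 3 is not settled, since the naive means of both trypsin-like genes lay below background and give only lower bounds, 4.40 and 4.23 on the log2 scale. The calls of both depended on the arrays: with naive replicate 2 or 3 or ionomycin replicate 2 or 3 left out, 0 of the 10 rows were called, although the differences of both genes were then larger (4.56 to 4.85). In the same 4 fits between 1 and 15 rows of the whole table were called higher.

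**Figure D2:**
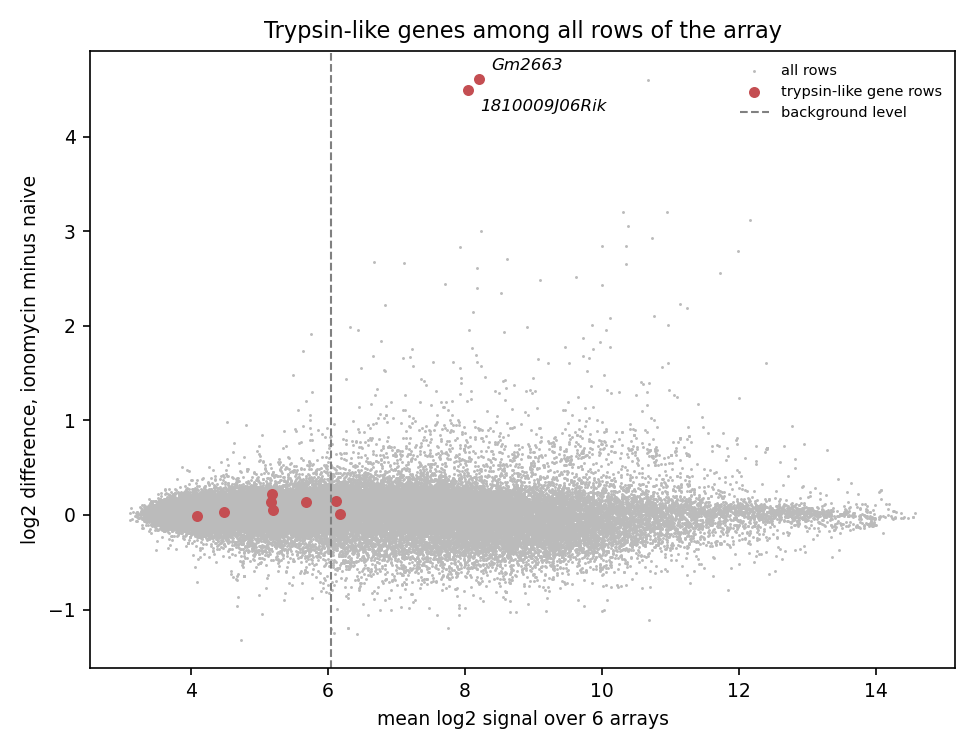
Log2 difference, ionomycin minus naive (vertical axis), against the mean log2 signal over 6 arrays (horizontal axis) for all 65770 rows in grey and the 10 rows of the cluster in red; the dashed line is the background level. Gm2663 (4.61) and 1810009J06Rik (4.50) lie at the top, and the other 8 rows lie between -0.01 and 0.23.

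The 8 other rows differed by -0.01 to 0.23 on the log2 scale, with a median of 0.09 against 0.05 for all rows. On 6 of the 8 no array exceeded background, so a low level of those transcripts could not be told from none. Of the 8 differences 7 were positive as deposited and 4 after centring of the arrays, when those of Prss58, Try5 and Prss2 became negative. The signs of Prss58, 1700074P13Rik, Try5 and Prss2 also changed under 1 or more of the alternatives and carry no settled direction. Those of Gm4744, 2210010C04Rik, Try4 and the row of Try10 and Gm5409 were positive under all alternatives tried. In 5 of the 10 rows the groups did not overlap. Among these are Gm2663 and 1810009J06Rik, so for the 8 other rows the count is 3, all with the ionomycin arrays higher. Of all rows 21.1% did not overlap, in either direction. Since the cluster was chosen by this contrast, nothing is read from these counts.

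The genes before the variable segments are taken first. The row of Prss58, annotated as a protein-coding serine protease gene, read 4.40, 4.53 and 4.47 on naive arrays and 4.47, 4.54 and 4.48 on ionomycin arrays, and the groups overlapped. That of 1700074P13Rik was flat as well, at 4.11, 4.09 and 4.10 against 4.08, 4.12 and 4.05. Both lay well below background on all 6 arrays.

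The pseudogene Gm4744, directly before 1810009J06Rik in the order of genes, read 5.05, 5.20 and 4.97 on naive and 5.34, 5.29 and 5.27 on ionomycin arrays. The groups did not overlap, but the log2 difference of 0.23 ± 0.08 (SE) was small and both groups lay below background. On the other flank, directly after Gm2663, 2210010C04Rik read 5.64, 5.55 and 5.64 and then 5.70, 5.83 and 5.71. Its groups were also apart by a small step (0.14 ± 0.07), again below background. The large differences were thus measured on 2 adjacent genes, and neither the gene before nor the gene after that pair had a difference above 0.23.

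The genes after the variable segments are taken next. Try4 read 5.94, 6.11 and 6.08 on naive and 6.13, 6.21 and 6.22 on ionomycin arrays (log2 difference 0.14 ± 0.07 SE), close to background on all arrays and with no overlap between groups. Try5 read 5.92, 6.35 and 6.26 against 6.04, 6.27 and 6.27, with overlapping groups and a difference of 0.01 ± 0.13. In both genes the replicate 1 array was the lowest of its group.

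The row naming Try10 and Gm5409 read 5.02, 5.09 and 5.20 on naive and 5.15, 5.30 and 5.27 on ionomycin arrays, with overlap. Prss2, which encodes an anionic trypsinogen of the pancreas, read 5.09, 5.19 and 5.23 against 5.24, 5.24 and 5.18, also with overlap. All arrays of these rows lay below background.

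**Figure D3:**
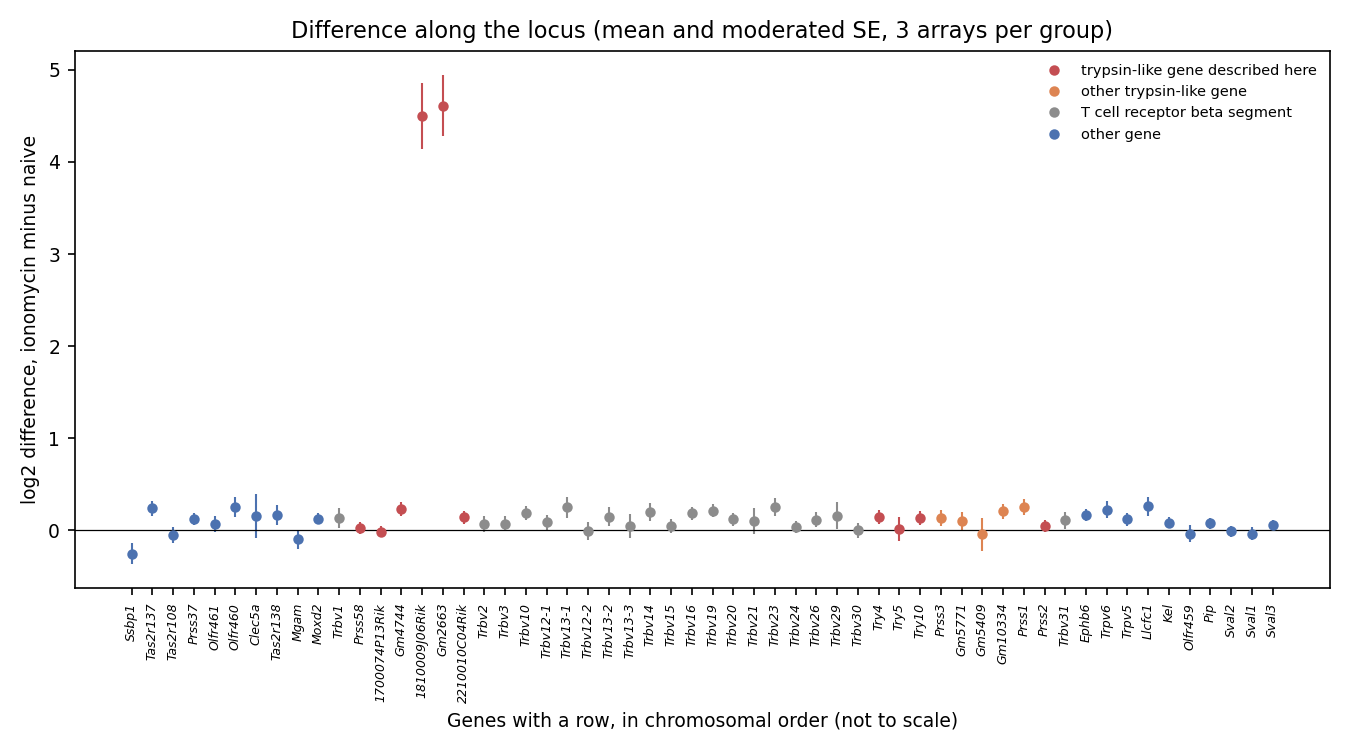
Log2 difference, ionomycin minus naive (vertical axis; points are means and bars moderated SE, 3 arrays per group), for each gene of the locus with a row, in chromosomal order and not to scale; the point for Try10 is the row that also names Gm5409. Gm2663 and 1810009J06Rik stand at 4.61 and 4.50, while every other gene drawn lies between -0.25 and 0.26.

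Between the outermost of the 10 genes lie 5 further trypsin-like genes with rows of their own, Prss3, Gm5771, Gm5409, Gm10334 and Prss1. Prss1, which encodes a trypsinogen, was the member of these with the largest difference, from 6.23, 6.51 and 6.38 to 6.58, 6.58 and 6.71 (log2 difference 0.25 ± 0.09 SE, limma adjusted p = 0.362). Gm10334 differed by 0.20 (limma adjusted p = 0.388), Prss3 by 0.13 (0.524), Gm5771 by 0.10 (0.685) and the pseudogene Gm5409 by -0.04 (0.931). None of these 5 passed.

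None of the genes around the cluster passed the test. Of 25 measured neighbours (these 5 and the 10 nearest genes with a row on each side), 0 passed in limma. Before adjustment 6 had p under 0.05 with a positive and 0 with a negative difference, and differences ran from -0.25 to 0.26. The share of all rows with p under 0.05 before adjustment was not counted. Nothing is therefore read from such counts, here or in the other lists. The median of the 25 was 0.12, against 0.05 for all rows. In 11 of the 25 (44%) the groups did not overlap, all with the ionomycin arrays higher. Of all rows 21.1% did not overlap, in either direction. The brightest were Ephb6, an Eph family receptor (log2 difference 0.17, limma adjusted p = 0.403), and Ssbp1, a mitochondrial DNA-binding protein gene (-0.25, adjusted p = 0.415). Of the T cell receptor beta segments 21 of 54 had a row naming them alone. In limma 0 of these passed, and before adjustment 4 had p under 0.05 upward and 0 downward. The brightest, Trbv1 and Trbv14, differed by 0.13 and 0.20 (adjusted p = 0.626 and 0.448). The median difference of the 21 segments was 0.11, against 0.05 for all rows. In 5 of the 21 (23.8%) the groups did not overlap, all with the ionomycin arrays higher, a share near the 21.1% of all rows.

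The row of Gm2663, taken because its measured difference was the larger of the pair, although the order of the pair is not settled, was set beside every other row with 1 symbol and a range of at least 1 log2 unit. The highest likeness outside the cluster was that of Crabp2, a retinoic acid-binding protein gene (Pearson's r = 0.998 over 6 arrays), then Dnajb1, a partner of HSP70 (0.997), the serotonin receptor gene Htr1b (0.997), the sugar phosphate transporter gene Slc37a2 (0.996) and the transcription factor gene Sox9 (0.995). For 1810009J06Rik it was 0.999. The 6 points share the same 2 groups, which lie apart, so any row with a strong difference gives a high value, and the figure describes order and spacing only. In size these genes differed from Gm2663: the log2 differences were 2.44 for Crabp2, 1.38 for Dnajb1, 0.98 for Htr1b, 2.71 for Slc37a2 and 0.95 for Sox9.

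**Figure D4:**
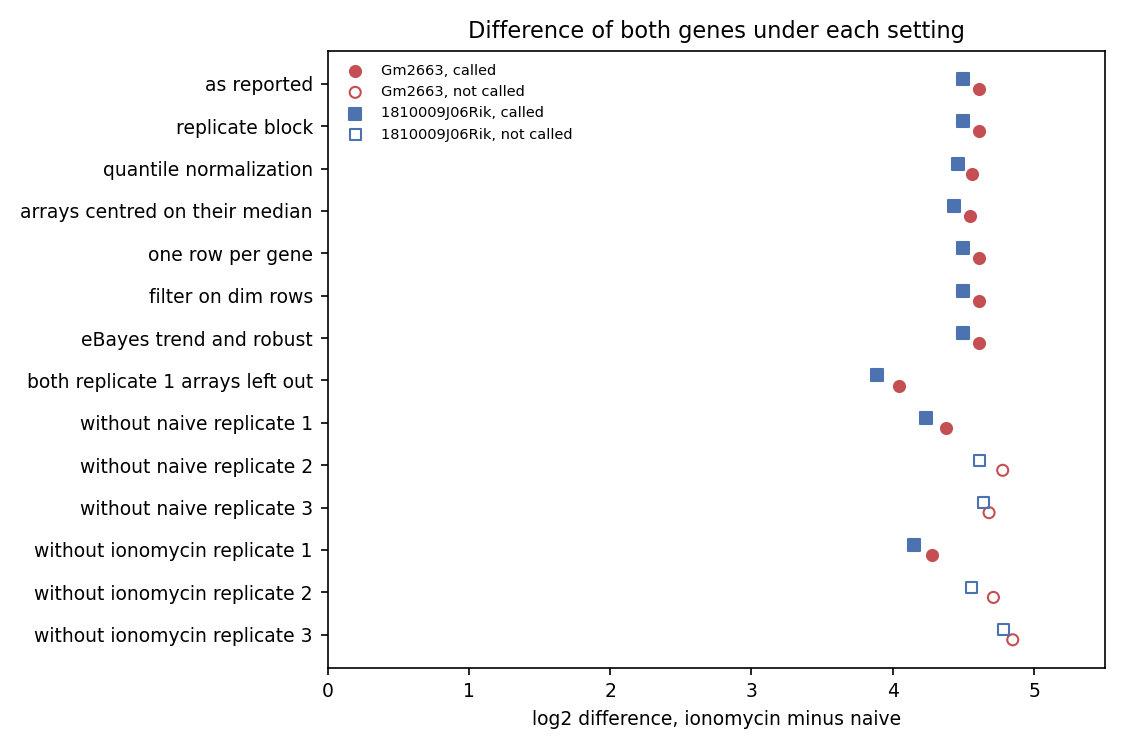
Log2 difference, ionomycin minus naive (horizontal axis), of Gm2663 (circles) and 1810009J06Rik (squares) as reported and under 13 other settings; filled markers were called by limma at an adjusted p under 0.05 and open ones were not. The values run from 3.89 to 4.85, and the 4 settings with open markers each leave out 1 array of replicate 2 or 3.

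Genes whose products activate, inhibit or sense trypsin were counted from a list of 28. Of 25 measured activators, inhibitors and receptors, 1 rose, 0 fell and 24 did not pass (limma, adjusted p under 0.05). Their median difference was 0.09, against 0.05 for all rows. The listed receptor gene F2rl1 was not among the 25 measured. Enteropeptidase (Tmprss15) was below background on all arrays, at 4.08 ± 0.06 in naive and 4.16 ± 0.02 in ionomycin arrays (SD, n = 3), and so was the pancreatic trypsin inhibitor gene Spink1, at 4.48 ± 0.09 and 4.57 ± 0.05. These 2 were named for their roles after their values were seen.

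The gene that rose was Ctsl, cathepsin L, a lysosomal protease able to degrade trypsinogen. It read 8.38 ± 0.31 in naive and 10.89 ± 0.23 in ionomycin arrays (SD, n = 3), a 5.70-fold difference (log2 2.51 ± 0.18 SE, limma adjusted p = 0.0114). Ctsl was on a list drawn up with earlier results of these data known, so its p-value is given as a description. Its call was lost when naive array 3 (limma adjusted p = 0.0597), ionomycin array 2 (0.11) or ionomycin array 3 (0.0941) was left out, with differences of 2.36 to 2.45, and over its 13 alternatives the adjusted p ran from 0.00569 to 0.11. Serpinb6b, a serpin gene named after its value was seen, had means of 7.22 ± 0.44 and 8.98 ± 0.27 (log2 difference 1.77 ± 0.24 SE, limma adjusted p = 0.068). Without both replicate 1 arrays its difference was 1.38 and it passed (limma adjusted p = 0.0125). Ctsb, cathepsin B, which can activate trypsinogen in the acinar cell, was bright and level, at 12.60 ± 0.19 and 12.63 ± 0.06 (log2 difference 0.03, limma adjusted p = 0.909).

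Among 74 trypsin-fold serine protease genes outside the cluster, 0 passed in limma, and before adjustment 12 had p under 0.05 upward and 1 downward. The median was 0.13, against 0.05 for all rows, with a range of -0.45 to 0.45. The mast cell enzymes led this list in brightness. Tpsb2, a mast cell tryptase, was at 14.07 ± 0.02 and 14.05 ± 0.03 (SD, n = 3; log2 difference -0.02, limma adjusted p = 0.905), and Cma1, mast cell chymase, differed by 0.01 (adjusted p = 0.937). Without both replicate 1 arrays 2 genes of this list were called lower, Plau, the urokinase gene (-0.88, limma adjusted p = 0.00859), and the tryptase gene Tpsab1 (-0.58, 0.0296). With all arrays Tpsab1 differed by -0.27 (limma adjusted p = 0.603), and at replicate 1 its difference was positive (0.33). Without naive replicate 1 alone, Plau was called (-0.83, limma adjusted p = 0.027). With all arrays Plau was not called, and no gene of this list had a difference below -0.45. Plau was named after its calls in these fits were seen.

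Acinar cells are the main known source of trypsinogen transcripts, and 36 of 39 listed acinar genes, were measured; 1 of them is Try4 itself. In limma 0 passed, and before adjustment 5 had p under 0.05 upward and 0 downward. Differences ran from -0.06 to 0.27. The mean level over the 36 genes was 5.77 to 5.88 on naive and 5.90 to 5.98 on ionomycin arrays. Their median difference was 0.09, against 0.05 for all rows. Of the 36, 18 had a mean above background, much the same share as the 31969 of all 65770 rows. The brightest were Cela1, an elastase gene (log2 difference 0.10, limma adjusted p = 0.507), and Ctrc, chymotrypsin C (0.14, adjusted p = 0.560). Ptf1a, the acinar factor whose E-box was searched above, stayed below background on all arrays, at 5.54 ± 0.10 and 5.63 ± 0.03 (SD, n = 3); it was named after its value was seen. The marker lists below had medians of 0.13 (T cell), 0.15 (macrophage), 0.11 (erythroid), 0.09 (B cell), 0.04 (neutrophil) and -0.03 (mast cell). A small step like that of the acinar list was thus not particular to it. Whether this step had a part in the values of Gm2663 and 1810009J06Rik was not tested.

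Of 16 measured T cell markers of 22, 0 passed in limma, and before adjustment 1 had p under 0.05 upward and 0 downward. Their mean level was 6.65 to 6.79 on naive and 6.81 to 6.89 on ionomycin arrays. The brightest were Lat, an adaptor that mast cells also use (-0.15, limma adjusted p = 0.496), and Ptcra (0.20, adjusted p = 0.423). Of the mast cell markers 0 of 14 passed in limma, and before adjustment 1 had p under 0.05 upward and 3 downward. Without both replicate 1 arrays 3 passed in limma: Hdc, the histamine-forming enzyme, was higher (0.64, adjusted p = 0.0225), and Ms4a2, a subunit of the IgE receptor (-0.59, adjusted p = 0.0409), and Tpsab1, given above, were lower. With all arrays Hdc differed by 1.04 and Ms4a2 by -0.62 (limma adjusted p = 0.23 and 0.216). The 3 genes were named after their values were seen. The part of these changes in the values of Gm2663 and 1810009J06Rik was not tested. The macrophage, neutrophil, B cell and erythroid lists had 8, 8, 4 and 2 measured genes, of which 0 passed in limma, while before adjustment 1, 0, 1 and 0 had p under 0.05 upward and 0 downward. The macrophage list averaged 8.10 to 8.55 on naive and 8.15 to 8.72 on ionomycin arrays, and its brightest genes Cd68 and Lyz2 were well above background, at naive means of 11.45 and 10.71 (log2 differences -0.28 and 0.17, limma adjusted p = 0.792 and 0.916). The part of such cells in the values of Gm2663 and 1810009J06Rik was not tested. The brightest neutrophil genes were Ly6g and Camp (-0.02 and 0.16, limma adjusted p = 0.944 and 0.426), the brightest B cell genes Pax5 and Cd79b (0.09 and 0.08, 0.555 and 0.683), and the erythroid genes Klf1 and Alas2 (0.09 and 0.13, 0.626 and 0.602).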

How the data were processed

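The authors deposited log2 signals for 65770 rows on each of 6 arrays, without a gap (0 missing values). The tool named per the submitters' processing notes is oligo. How probes were summarized and arrays normalized, the tool's version and the build: not given in the sources used here. The log2 scale was read from the values (3.01 to 14.6). Precision is limited by the number of arrays. There were 0 pairs of identical arrays.

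The platform annotation gave the gene names: 30439 rows have 1 symbol, 2146 several and 33185 none, updated through Entrez IDs with RefSeq genes (GRCm38.p6). For lists, the row with the highest mean stood for a gene.

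The 2 groups were compared with limma 3.58.1 (R 4.3.3; lmFit, eBayes, two-sided) over all rows, since the row of Try10 names a second gene, and without a block, since the labels name no batch; Benjamini-Hochberg adjustment ran over all rows, with a threshold of 0.05. The code was tested on simulated data. Titles share replicate numbers between groups, and deviations from the group means correlated at 0.603, 0.317 and 0.368 for the same numbers. Between numbers 2 and 3 they correlated as much (0.396 and 0.358). Deviations cancel within a group, and number 1 lay apart in both groups. These values therefore cannot show whether numbers 2 and 3 were paired between the groups. A fit with the number as a block was an alternative. Others were quantile normalization, centring, 1 row per gene, a filter on dim rows, trend and robust settings, and leaving out arrays.

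The 10 genes, lists, motifs and tests were chosen with earlier results of these data known. Named genes were all 10 rows; from each list up to 3 called genes, or the brightest until 2 were named; and the 5 genes most like Gm2663. Exceptions are marked.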

Additional observations from a re-analysis of the deposited data

How the results depend on the processing

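The 13 alternatives refit the values that chose the cluster, so they show how its values move and add no support for them. The differences ran from 4.04 to 4.85 for Gm2663 and from 3.89 to 4.78 for 1810009J06Rik, and each was called in 9 fits. Leaving out 1 array gave 4.28 to 4.85 and 4.15 to 4.78, with 0 to 2 of the 10 rows called higher; the cause of the lost calls was not tested. With the replicate number as a block, 2 of the 10 rows were called and the differences were 4.61 and 4.50, so the block changed no call among them. The 8 other rows were called under no alternative; of their 97 values, from -0.12 to 0.29, 13 had the opposite sign to the value reported. Among all rows 106 were called higher and 15 lower. These counts became 132 and 25 with the block, 59 and 19 after centring, 386 and 231 without both replicate 1 arrays, and 1 to 113 higher and 0 to 41 lower without 1 array. Of the activators, inhibitors and receptors, 2 were called higher without both replicate 1 arrays and 0 to 1 without 1 array; of the serine proteases outside the cluster, 2 and 0 to 1 were called lower. Of the mast cell markers 3 passed without both replicate 1 arrays. The causes were not tested. Counts for acinar genes, neighbours and T cell markers stayed at 0. Signals near background limit what the 8 rows can show.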
